A study of Drosophila melanogaster with 57 samples.

Results

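The genes of the piRNA pathway were examined for overlap with regions of the fly genome that held piRNA-sized reads. The set held 42 protein-coding genes of *Drosophila melanogaster* with a known role in making piRNAs or in silencing with them, taken by symbol from a written list, among 13968 protein-coding genes on the 7 assembled nuclear chromosomes. All 42 were found in the annotation, 41 by symbol and *nbr* under the spelling Nbr. They were compared with 1 list of 3356 putative piRNA clusters (called regions here) that the authors deposited in coordinates of the dm6 genome. These regions cover 29.4% of the 7 chromosomes. The paper counts 3356 new clusters apart from the canonical clusters known before. Whether the list also holds canonical clusters was not tested, so a gene outside the regions may still lie in a canonical cluster. Small RNAs of 6 groups with 3 libraries each were sequenced in the study, and which of these libraries the list was made from is not given in the sources used here. The groups were ovaries with UASp-tkvM1, an always-active BMP receptor that *nos-gal4* drove in germ cells; *bam*-mutant ovaries (bamΔ86); *bgcn*-mutant ovaries (bgcn20093 and bgcn20915); cultured germline stem cells (GSCs) and the somatic support cells (SCs) grown with them, sorted by GFP from cultures of the genotype vasa-GFP; hs-bam bamΔ86/bamΔ86, GSCs as GFP-positive and SCs as GFP-negative cells; and w1118 ovaries as wild type. The GSCs and SCs came from 1 cultured line, the SC fraction was sorted by the lack of GFP alone, and the bamΔ86 allele was shared by the *bam*-mutant ovaries and both cultured cell types. The age of the flies was not given in the sources used here.

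PIWI proteins are Argonaute proteins that bind piRNAs, small RNAs of the gonad that silence transposable elements (TEs). In ovarian germ cells, precursor transcripts of piRNA clusters are made with the help of the Rhino complex, exported, and cut in the nuage, a structure around the nucleus where Aub and AGO3 amplify piRNAs in the ping-pong cycle. Other piRNAs are made stepwise along a precursor at the surface of mitochondria, and Piwi loaded with them enters the nucleus and silences TE transcription there. Somatic cells of the ovary have Piwi and the Yb body in place of the nuage and ping-pong. The 3′ UTRs of some protein-coding mRNAs are also known to give rise to piRNAs, called genic piRNAs.

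A gene was counted as met when at least 1 base of its body, from the annotated start to the annotated end with introns, lay in a region. Of the 42 pathway genes, 33 (78.6%) were met, against 43.7% of all protein-coding genes. Genes of the same chromosome arm whose length was within 25% of that of the member were met in 50.7% on average, which corresponds to 21.3 of 42 genes. The 33 genes include all 3 PIWI genes, 9 of 11 genes of nuage assembly and ping-pong, 4 of 6 of cluster transcription, all 4 of precursor export, 5 of 8 of transcriptional silencing, 3 of 5 of the mitochondrial surface, and all 5 of the Yb body, PIWI loading, and 3′ end maturation. The other 9 genes had no base in a region, so the set as a whole does not lie within these regions. Each gene was counted under 1 role only, so the counts per role depend on that choice. No statistical test was made, because the list is a single set of regions without samples or replicates, and genes are not replicates.

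Most of the genes that were met were covered over much of their length. At least 50% of the gene body was in regions for 31 of the 42 members, against 33.2% of all protein-coding genes and 38.8% of genes of the same arm and length. The whole body was in regions for 19 members, against 21.3% of all protein-coding genes and 23.8% of genes of the same arm and length. At least 1 exonic base was in a region for 33 members, against 42.9% of all protein-coding genes. The median member had 98.0% of its body in regions, whereas the median over all protein-coding genes was 0%, and the mean was 67.0% for members and 38.6% for genes of the same arm and length. The share exceeded the mean of their own genes of the same arm and length for the same 31 members that had at least 50% in regions. That count is therefore not a separate result, and no such count over all protein-coding genes is given here. Just above the threshold of 1 base was *wde* with 0.634% of its body, and just below it were *Panx*, 2033 bases from the nearest region, and *Nxt1*, 2115 bases away.

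**Figure D1:**
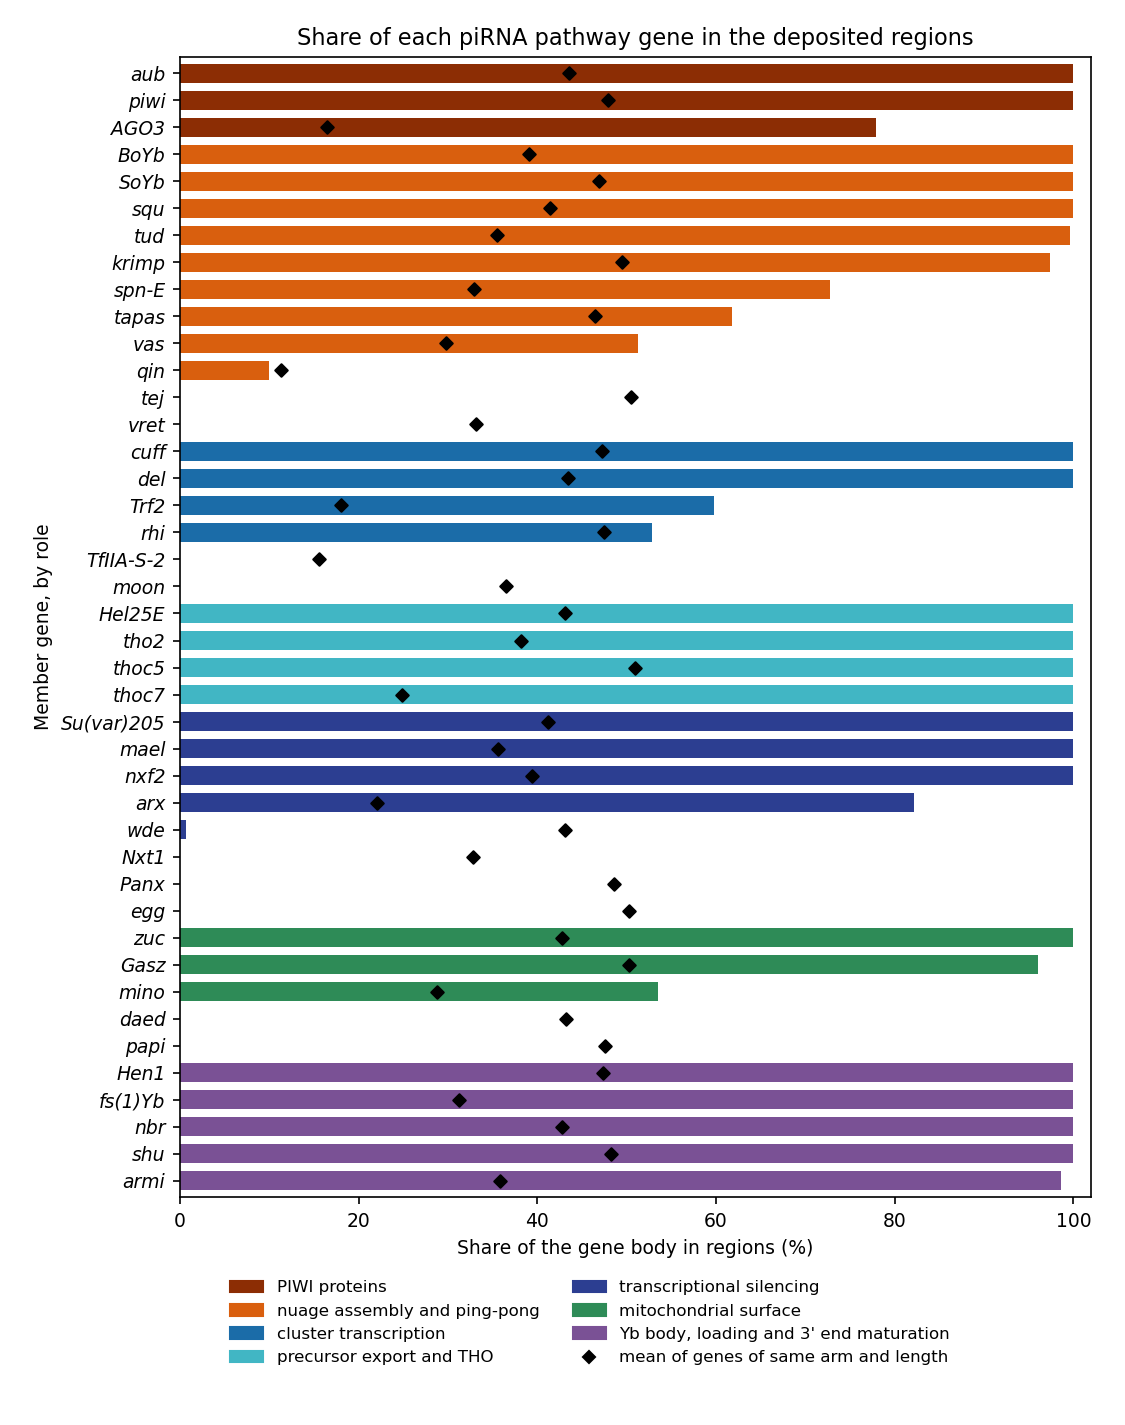
Share of the gene body in regions (horizontal axis, %) for each of the 42 members (vertical axis), colored by role, with a diamond for the mean share of genes of the same arm and length. The 19 bars at 100% appear in all 7 roles, and the 9 members without a bar are *tej*, *vret*, *TfIIA-S-2*, *moon*, *Nxt1*, *Panx*, *egg*, *daed*, and *papi*.

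The PIWI genes were each covered over most of their length. *piwi* (FBgn0004872), which encodes the nuclear PIWI protein, occupies chr2L:10982205-10987420 on the minus strand, and all of its 5216 bases were in 1 region of 11235 bases (chr2L:10977916-10989150). *aub* (FBgn0000146), which encodes the ping-pong PIWI protein loaded mostly with antisense piRNAs, occupies chr2L:10997819-11001476, and all of its 3658 bases were in a region of 14872 bases (chr2L:10997336-11012207). The regions of *piwi* and *aub* were neighbors on chromosome 2L, 8185 bases apart. *AGO3* (FBgn0250816), which encodes the ping-pong partner of Aub loaded mostly with sense piRNAs, is a gene of 135048 bases (chr3L:23554593-23689640) with 77.9% of its body in regions. Genes of the same arm and length had mean shares of 47.9% for *piwi* and 43.5% for *aub*, and *AGO3* had only 15 such genes.

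The 3 PIWI genes differed in how the regions lay on them. *piwi* and *aub* were covered in every exon and intron, and the region of each extended beyond the gene: the *aub* region met 7 protein-coding genes and the *piwi* region met 3. *AGO3* was covered by 7 separate regions of 6633 to 24484 bases, all of which lay entirely inside the gene with both edges in introns and met no other gene. The list names its regions by number, and the numbers within *AGO3*, as within *vas*, are not consecutive. Whether other regions were left out of the list there is not given in the sources used here. The coding sequence of *AGO3* was 85.6% in regions, its 5′ UTR 0.706%, and its 3′ UTR 0%. The annotation lists 106 TE insertions in *AGO3*, 3 in *piwi*, and none in *aub*, and 37.4%, 15.6%, and 7.93% of their bases are repeat-masked in this order. The part of TE insertions in the coverage of *AGO3* was not tested.

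The sequences at the outer edges of the regions on the PIWI genes are shown because an edge is the only kind of position in the list that can mark the end of a read. Each runs 5′ to 3′ from outside the region inward, with 5 bases outside in lower case and 25 bases inside in capitals, in the dm6 genome sequence of NCBI.
piwi, downstream edge, chr2L:10977911-10977940, plus strand: actaaTTTACGGGTTTGCCAATTTGGAGAT
piwi, upstream edge, chr2L:10989126-10989155, minus strand: atgggTTTTAATGAATTGTCTTCGATTGTT
aub, downstream edge, chr2L:10997331-10997360, plus strand: ttaggACTCGAACGATGAAGAAACAACACC
aub, upstream edge, chr2L:11012183-11012212, minus strand: aagtaTGCAATGCATATCCAGGAAATCTAG
AGO3, edge nearest its start, chr3L:23557813-23557842, plus strand: aaacaAAGGAACTGAGCGAATTTATTAAAA
AGO3, edge nearest its end, chr3L:23686436-23686465, minus strand: tgagaTCGCTATAGTCCAGTGCTCACCTAA
Of these, the *piwi* downstream edge, the *aub* upstream edge, and the *AGO3* edge nearest its end had thymine as the first base inside and adenine as the last base outside.

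In 4 cases an edge fell within coding sequence, so that part of the open reading frame was in a region and part was not. The edges in the coding sequence of *spn-E* and *arx* are shown for that reason, and the fourth, in *tapas*, is not.
spn-E, right edge of the region at its start, chr3R:15837912-15837941, minus strand: gactaCCGGATGAGCATTGATGGCCGCCAA
spn-E, left edge of the region at its end, chr3R:15839838-15839867, plus strand: gcagcTTCCAGGTGGGCCTGCACCGCCCGA
arx, upstream edge, chr3L:18901359-18901388, minus strand: aaagaCACGGTGGAACTTATGGTTTGTCCC
Between the 2 edges of *spn-E* lay the part of the gene that was in no region.

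piRNAs bound by Piwi and Aub mostly begin with uridine, and piRNAs made stepwise tend to end just before a uridine of the precursor. On an edge read inward, a read that begins at the edge puts its first base at the first position inside, and a read of the other strand that ends there leaves the complement of its next base just outside. Of the 84 edges of the regions that met members, 37 (44.0%, Wilson 95% interval 33.9 to 54.7%) had thymine at the first position inside, against 43.3% of 6589 edges of the other regions and 29.0% of the bases of the chromosomes. Adenine was the last base outside in 38 of 84 edges (45.2%, 35.04 to 55.9%), against 40.3% of the edges of the other regions. At least 1 of these features was present at 59 of 84 edges (70.2%), against 67.4% of the other edges. The positions 11 to 25 inside the edges of member regions held 26.9% thymine and 26.1% adenine. These 2 intervals, which cover counting error only, included the share of the other regions. At the first position inside, adenine (13.1%, 7.47 to 21.9%, against 24.8%) was rarer and cytosine (23.8%, 16.0 to 33.9%, against 14.5%) more frequent than in the other regions, and their intervals did not include it. Adenine and cytosine at this position were chosen after their values were seen, among 4 bases at 30 positions. Intervals at some other positions also left out the share of the other regions. Examples were guanine at position 9 inside (32.1%, 23.1 to 42.7%, against 22.5%) and cytosine at position 23 inside (32.1%, 23.1 to 42.7%, against 22.4%). Cytosine at position 5 outside (10.7%, 5.74 to 19.1%, against 19.4%) was another. Such an interval alone therefore does not set the first position apart. The list does not say whether an edge is the end of a read or which strand the reads there had.

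**Figure D2:**
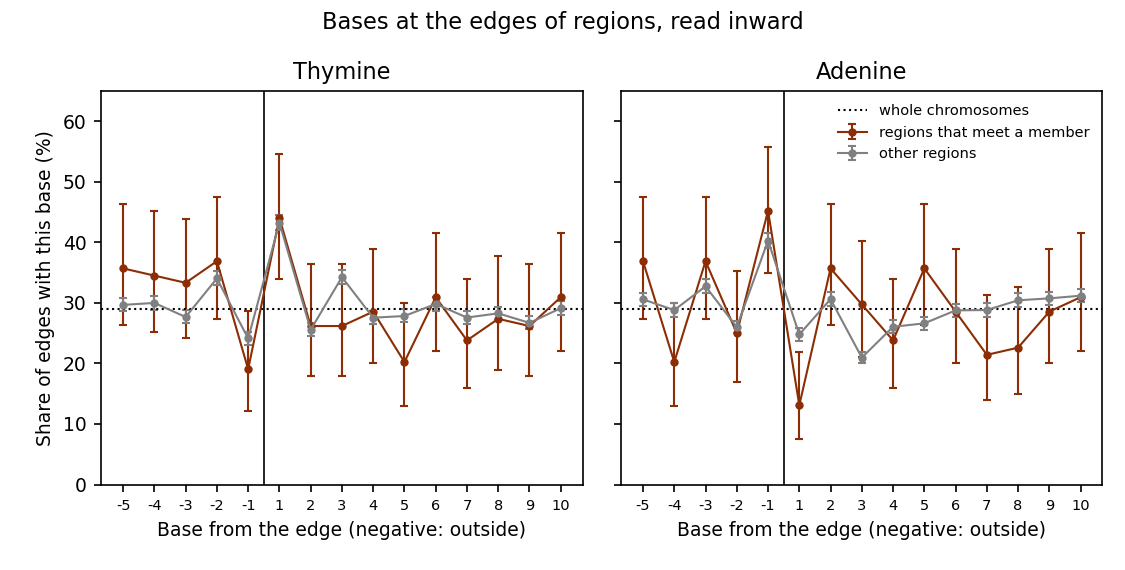
Share of edges (vertical axis, %) with thymine (left) or adenine (right) at each position from the edge (horizontal axis, negative outside), for 84 edges of regions that met a member and 6589 edges of other regions, with Wilson 95% intervals and a dotted line at the share in the chromosomes (29.0%). Thymine peaks at the first base inside (44.0% and 43.3%) and adenine at the last base outside (45.2% and 40.3%).

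Among the genes of nuage assembly and ping-pong, which code mostly for Tudor-domain proteins and RNA helicases, the share in regions ranged widely, from 0% to 100%, and 8 of 11 had at least 50%, against 33.2% of all protein-coding genes and 37.7% of genes of the same arm and length. *squ* (FBgn0267347, chr2L:16680054-16681653), a nuage protein gene, was wholly in a region of 5087 bases, and *grp* overlaps with all of it. *BoYb* (FBgn0037205, chr3L:22901912-22905470), a Tudor-domain helicase of the germline nuage, was wholly in the widest region that met a member, 50432 bases with 14 genes. *SoYb* (FBgn0051755, chr2L:9996706-10002736), a relative found in soma and germline, was wholly in a region of 19317 bases whose edge lay 6 bases upstream of the annotated start of the gene. *CG31875* overlaps with all of *SoYb*. *tud* (FBgn0003891, chr2R:21183322-21192913), a protein with many Tudor domains, was 99.7% in a region of 11990 bases, of which *tud* itself made up 79.7%. *krimp* (FBgn0034098, chr2R:16238103-16240722), a scaffold that holds unloaded AGO3, was 97.4% in a region of 2969 bases that met no other gene and left out most of its 5′ UTR, of which 10.4% was inside.

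The remaining genes of this role were covered in part. *spn-E* (FBgn0003483, chr3R:15837419-15844415), a helicase with a Tudor domain, was 72.8% in regions, with 95.6% of its coding sequence and 25.9% of its introns in 2 regions of 2740 and 9031 bases. *tapas* (FBgn0027529, chr2R:20319180-20325973), a relative of Tejas, was 61.8% in a region of 9214 bases that held 91.7% of its coding sequence and none of its 5′ UTR. *vas* (FBgn0283442, chr2L:15061656-15074311), the DEAD-box helicase of the nuage, was 51.2% in 2 regions of 2472 and 5414 bases. The smaller of these lay inside *vas* with both edges in introns and also met *vig* and *solo*, which overlap with *vas*, and other genes share 82.8% of the bases of *vas*. *qin* (FBgn0263974, chr3R:18591027-18650137), which keeps ping-pong between Aub and AGO3, had only 9.92% of its 59111 bases in a region of 13090 bases, but this part held 85.3% of its coding sequence, all of its 3′ UTR, and 1.24% of its introns. That region also met *CG31224*, which overlaps with *qin*, and other genes share 69.2% of the bases of *qin*. *tej* (0%, 35495 bases from the nearest region) and *vret* (0%, 10385 bases) were not met, and both encode Tudor-domain proteins. Because the list has no strand, a region on a member that overlaps with another gene cannot be given to either gene.

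The cluster transcription genes were split between covered genes and genes without regions. *del* (FBgn0086251, chr2L:21145137-21148546) and *cuff* (FBgn0260932, chr2R:11886067-11887603), 2 partners of Rhino, were wholly in regions of 25684 and 31588 bases. *rhi* (FBgn0004400, chr2R:17628491-17633516), the HP1 homolog that binds clusters read from both strands, was 52.8% in a region of 3323 bases, with all of its coding sequence and 5.86% of its 3′ UTR inside. *CG10936* overlaps with all of *rhi*. *Trf2* (FBgn0261793, chrX:8409272-8433011), a TBP-related factor, was 59.8% in 2 regions of 11525 and 13531 bases, with all of its coding sequence and 31.6% of its introns inside. The 2 TFIIA relatives, *moon* (0%, 7002 bases from the nearest region) and *TfIIA-S-2* (0%, 10415 bases), were not met. They are short genes of 811 and 543 bases on the X chromosome, where 37.8% and 16.5% of genes of the same length were met.

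All 4 genes of precursor export and the THO complex, which packages nascent transcripts for export, were wholly in regions. *Hel25E* (FBgn0014189, chr2L:5539326-5542314), which encodes the helicase UAP56, was in a region of 8622 bases, and *tho2* (FBgn0031390, chr2L:2137350-2145187) in one of 27769 bases. *thoc5* (FBgn0034939, chr2R:23954091-23956406) was in a region of 8482 bases, and *thoc7* (FBgn0035110, chr3L:211636-212687) in one of 20260 bases with 11 genes. Of genes of the same arm and length as these 4, 26.2% were covered over their whole body.

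The transcriptional silencing genes, which act with Piwi at nascent transcripts, were met in 5 of 8 cases, against 47.6% of genes of the same arm and length. The gene of the heterochromatin protein HP1a (FBgn0003607, chr2L:8209626-8211122), *mael* (FBgn0016034, chr3L:22721203-22726234), whose protein acts downstream of Piwi, and *nxf2* (FBgn0036640, chr3L:16576859-16580306), whose protein binds Panoramix, were wholly in regions of 16461, 13966, and 7103 bases. *arx* (FBgn0036826, chr3L:18900595-18901554), which encodes the zinc finger cofactor Asterix, was 82.2% in a region of 2301 bases that met 1 other gene. *wde*, the cofactor of the histone methyltransferase Eggless, had only 0.634% of its body, all in its 5′ UTR, in a region of 2008 bases. *Panx*, the effector Panoramix, *Nxt1*, an NXF partner, and *egg* itself were at 0%, and the nearest region to *egg* was 5027 bases away. *Panx* was near a region of 28262 bases that did not reach it.

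At the mitochondrial surface, *zuc* (FBgn0261266, chr2L:11988735-11989882), the endonuclease that makes stepwise piRNA ends, was wholly in a region of 18342 bases with 13 genes. *Gasz* (FBgn0033273, chr2R:8167948-8170089), an outer membrane scaffold, was 96.1% in a region of 4940 bases, which left out most of its 5′ UTR (11.6% inside). *mino* (FBgn0027579, chr3R:27925191-27933077), a glycerol-3-phosphate acyltransferase, was 53.5% in 2 regions of 3192 and 17030 bases, with 95.4% of its coding sequence and 12.1% of its introns inside. *daed*, the partner of Gasz, and *papi*, a Tudor-domain protein that helps trim piRNA ends, are near each other on chromosome 2L and were both at 0%, with the same nearest region 12180 and 2947 bases away.

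The 5 genes of the Yb body, PIWI loading, and 3′ end maturation were each covered over at least 98.6% of the body, against a mean share of 41.1% for genes of the same arm and length. *armi* (FBgn0041164, chr3L:3461317-3466314), the helicase Armitage, was 98.6% in a region of 8239 bases, and *CG46463* overlaps with all of it. *fs(1)Yb* (FBgn0000928, chrX:2720468-2724158), which encodes the core protein of the somatic Yb body, was wholly in a region of 14230 bases. *shu* (FBgn0003401, chr2R:23841461-23843286), a co-chaperone of PIWI loading, was wholly in a region of 16332 bases. That region also met *bgcn*, the gene mutated in 1 of the groups, which is named here after its position was seen. *Hen1* (FBgn0033686, chr2R:12145710-12152752), the methyltransferase of piRNA 3′ ends, was in a region of 24814 bases, and *bsd* and *Hen1* share 71.5% of the bases of *Hen1*. *nbr* (FBgn0032924, chr2L:21160636-21163083), the exonuclease Nibbler, was in the same region of 25684 bases as *del*, the only region that met 2 members. *papi*, which helps trim piRNA ends, was placed at the mitochondrial surface, and *vret*, a Tudor-domain protein gene, under nuage assembly and ping-pong. Both were at 0%, so the coverage of all 5 genes here depends on how roles were given. The roles were chosen with earlier results of these data known.

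By compartment, 14 of 19 nuclear members, 11 of 13 nuage members, 3 of 5 members of the mitochondrial surface, and 5 of 5 other cytoplasmic members were met. Genes of the same arm and length as these were met in 47.7%, 54.6%, 51.3%, and 51.3% in the same order. The median share in regions was 100% for nuclear members, 77.9% for nuage members, 53.5% for members of the mitochondrial surface, and 100% for other cytoplasmic members. The mean share was 62.9%, 67.0%, 49.9%, and 99.7% in the same order, so nuage members were above nuclear members by the mean. Genes of the same arm and length had mean shares of 38.2%, 36.7%, 42.5%, and 41.1%. With so few genes in a compartment, a difference of 1 or 2 genes moves these shares strongly, and the compartments were not tested against each other. By chromosome, 11 of 13 members were met on 2L, 10 of 14 on 2R, 7 of 7 on 3L, 3 of 4 on 3R, and 2 of 4 on X. Over all protein-coding genes the corresponding shares were 48.9%, 51.9%, 36.9%, 38.4%, and 41.9%. No member lay within 2 Mb of the centromeric end of an arm. This window is a set distance and not a mapped limit of heterochromatin. *AGO3*, with its 106 annotated TE insertions, lay 4420587 bases from the centromeric end of 3L.

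Other gene lists were counted in the same way. Of 20 other piRNA pathway and cofactor genes, such as *Boot*, *sov*, and *Hsp83*, 17 (85.0%) were met, against 50.6% of genes of the same arm and length, and *kipf*, *csul*, and *Su(var)3-3* were not. Of 8 genes of the miRNA and siRNA machinery, which work with other Argonaute proteins, 6 (75.0%) were met, against 54.1% of genes of the same arm and length. *Dcr-2*, *AGO2*, and *drosha* were wholly in regions, and *Dcr-1* and *loqs* were at 0%. The following 2 lists were chosen after the values of the members were seen. Of 90 genes of cytoplasmic ribosomal proteins, which all growing cells need in large amounts, 79 (87.8%) were met, against 37.6% of genes of the same arm and length. Of 119 odorant and gustatory receptor genes, known from sensory neurons, 19 (16.0%) were met, against 40.7%. The share of the 42 pathway genes that were met (78.6%) lay between those of the miRNA and siRNA machinery and of the other pathway genes. The expression of the genes was not analysed here, so its part in these shares was not tested.

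**Figure D3:**
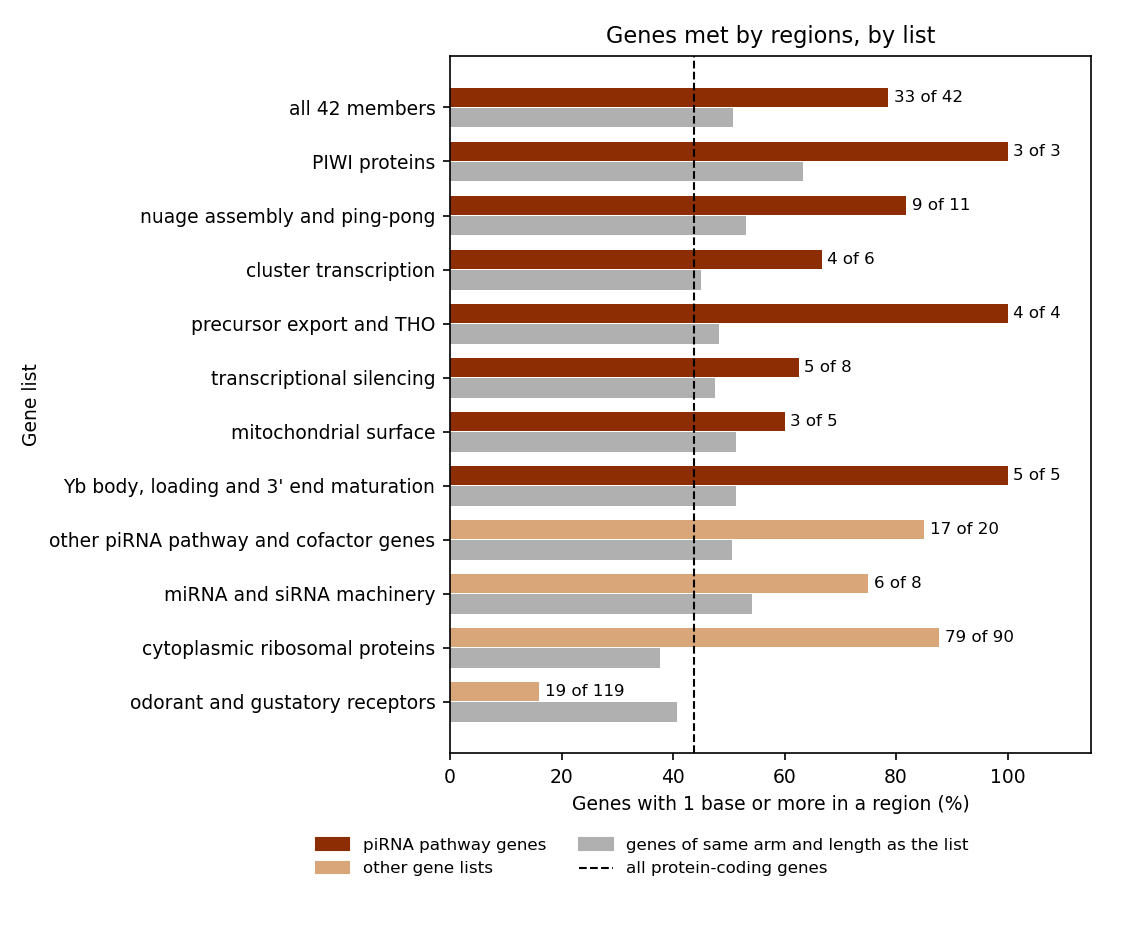
Percentage of genes with at least 1 base in a region (horizontal axis) for all members, each role, and 4 other gene lists (vertical axis), each with a gray bar for genes of the same arm and length and a dashed line at all protein-coding genes (43.7%). The bars of all members (33 of 42), ribosomal proteins (79 of 90), and other pathway genes (17 of 20) exceed their gray bars, and that of the receptors (19 of 119) is below it.

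The parts of the members differed in how much of them was in regions. Pooled over members, 80.3% of coding bases, 85.0% of 3′ UTR bases, 63.7% of 5′ UTR bases, and 54.6% of intronic bases were in regions. Over all protein-coding genes the values were 38.3%, 43.7%, 24.7%, and 21.4% in this order. *AGO3* alone holds most of the intronic bases, and without it 27.8% of the intronic bases of the other 41 members were in regions, beside 80.1% of their coding bases, 85.4% of their 3′ UTR bases, and 66.5% of their 5′ UTR bases. Without *AGO3*, coding sequence thus had a higher pooled share than introns, as also over all protein-coding genes. Of the 115363 intronic bases left, *qin* alone holds 53013, with 1.24% of them in regions. Taken per gene without *AGO3*, the mean share was 64.2% for introns and 73.9% for coding sequence, and both medians were 100%. Over all protein-coding genes these means were 31.3% and 35.8%. When only bases that overlap with no other annotated gene were counted, the members without *AGO3* had 81.9% of coding bases, 90.0% of 3′ UTR bases, 59.5% of 5′ UTR bases, and 33.9% of intronic bases in regions. Without *AGO3* the order of the 4 parts was the same in both counts. With *AGO3* it was not, since 66.1% of intronic bases and 56.0% of 5′ UTR bases that overlap with no other gene were in regions.

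**Figure D4:**
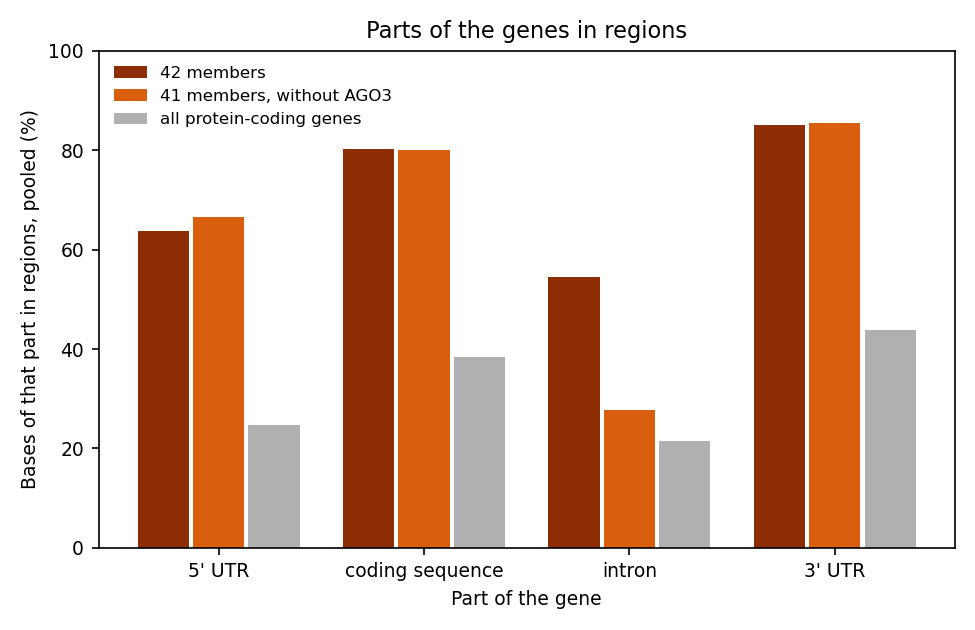
Pooled share of bases in regions (vertical axis, %) for 4 parts of the gene (horizontal axis), for all 42 members, the 41 members without *AGO3*, and all protein-coding genes. Coding sequence (80.3%) and 3′ UTR (85.0%) of members are the highest bars, and the intron bar is 54.6% with *AGO3* and 27.8% without it.

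Along the gene body, the mean share of the members was 62.1% in the first 5% of the gene and 72.5% in the last 5%, and that of all protein-coding genes was 27.8% and 38.5%. Of the 14 members that were covered in part, 8 had a larger share of the last 5% than of the first 5%, 3 had the same share, and 3 had a smaller one. Among the 8 was *AGO3*, whose shares were nearly the same (52.9% and 52.2%). No such count over protein-coding genes covered in part is given here, so the counts are not a trait of the members. In these 14 genes the mean share was 42.3% for the 5′ UTR, 86.8% for coding sequence, and 78.7% for the 3′ UTR, against 32.2%, 64.9%, and 77.6% over protein-coding genes covered in part. *tapas*, *arx*, and *qin* were open at the start and covered at the end. *rhi* was the reverse, with its start covered and its end open. *spn-E*, *mino*, and *Trf2* were covered at both ends with a gap between them, and *vas* was covered in 2 separate stretches.

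**Figure D5:**
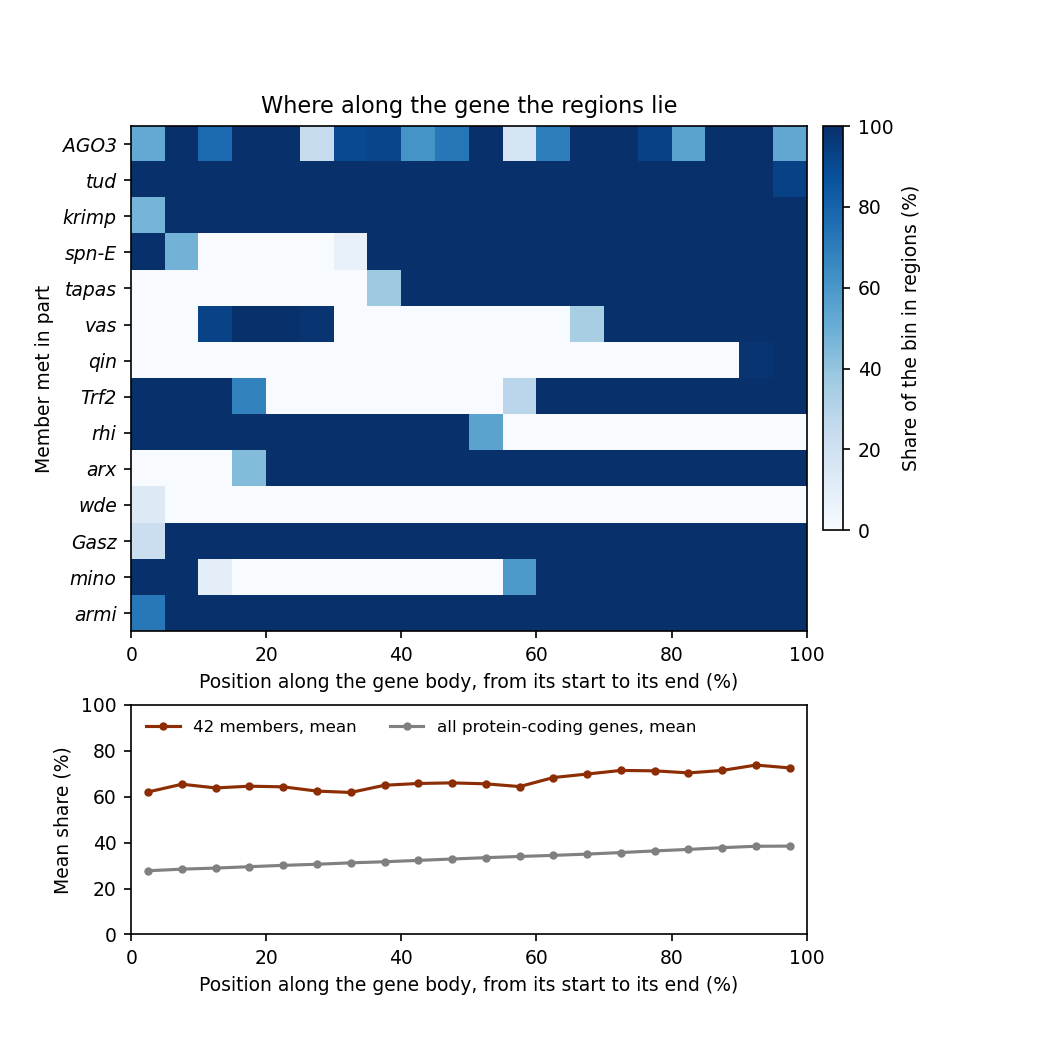
Upper panel, share of each of 20 equal bins along the gene body in regions (color, %) for the 14 members covered in part (rows), from the start of the gene to its end. Lower panel, mean share per bin for all 42 members and for all protein-coding genes, at 62.1% and 27.8% in the first bin and 72.5% and 38.5% in the last.

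The regions on the members were wide, and most also held other genes. In all, 42 regions met a member, with widths from 2008 to 50432 bases and a median of 12066.5 bases, against 6360.5 bases for the 2862 regions that met a protein-coding gene. A wide region can meet more genes of any kind, and the part of this in the difference was not tested. At least 1 other gene was met by 34 of the 42 regions, the median was 3 protein-coding genes for a region that met a member and 2 for a region that met any protein-coding gene, and the member took up a median of 37.0% of its region. The 8 regions that met no other gene were the 7 in *AGO3* and the one on *krimp*. Bases in no annotated gene made up a median of 3.46% of a region. Repeat-masked bases made up a median of 9.19% of the regions that met a member, against 15.8% of all regions. An annotated TE insertion was present in 6 of 42 members, all of which were met, against 6.93% of all protein-coding genes, of which 73.2% were met. Of the 36 members without any, 27 were met, against 41.5% of all protein-coding genes without any.

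The surroundings of the members were covered as well, though less than the members themselves. Within 50 kb on each side, the median share in regions was 30.8% for members and 19.4% for all protein-coding genes. It was 32.7% around the 33 members that were met and 17.5% around the 9 that were not, against 31.3% around the protein-coding genes that were met. The share of the gene body exceeded that of its flanks for 30 of the 33 members, and the same was true of 84.1% of the protein-coding genes that were met. The flanks of *AGO3* (91.3%), *thoc7* (85.7%), and *BoYb* (77.5%) were the most covered, and those of *armi* (5.48%) and *arx* (8.20%) the least among members that were met. Another annotated gene shares bases with 28 members, of which 22 were met, against 50.2% of all protein-coding genes that share bases with another gene. Of the 14 members that share none, 11 were met, against 37.9% of all such protein-coding genes.

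Most regions did not end at the ends of the members. Counting an edge once for each member it belongs to, 54 edges lay outside the member, 22 in an intron, 5 in a 5′ UTR, 4 in coding sequence, and 1 in a 3′ UTR. Upstream of the member lay 25 edges, at a median distance of 5863 bases from its start, and 29 lay downstream at a median of 3700 bases from its end. Of all 86 edges counted in this way, 13 were within 1000 bases of the start or end of the member, 2 upstream, 3 downstream, and 8 inside it. Edges of regions on other protein-coding genes were not placed in this way here, so these counts do not set the members apart.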

How the data were processed

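Small RNAs had been sequenced from 6 groups with 3 libraries each (18 libraries in 30 runs). The mRNA libraries were not used. In the study's methods, reads were mapped to TE sequences with Bowtie2 (v2.2.0), the rest to dm6 with Bowtie (v1.0.0), with multi-mapped reads kept for cluster discovery only. Windows with reads of 23 to 35 nt were merged within 250 nt, kept at 3 unique reads per kb or more, merged within 1000 nt, and kept above 2000 nt. Mapping to TEs first takes out reads that match those TE sequences, but not all reads from repeats. Repeat-masked bases still made up 29.3% of the bases of all regions, pooled. Merging can join neighboring genes into 1 region. The values the authors deposited in the list are starts and ends of regions in bases, a unit other than counts, and the list has no strand, depth, or value per library. Counts of piRNA start sites per group that accompany the paper were not used here. Which libraries were scanned together is not given in the sources used here.

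Gene bodies, exons, UTRs, and TE insertions came from Ensembl release 115 on the same coordinates, and the genome sequence from NCBI. Each base was given to 1 part of a gene, coding over UTR over intron. Members, roles, and lists were chosen with earlier results of these data known. Every member is named; positions are given for the PIWI genes, members with at least 50% of the body in regions, and members met by a region of 10000 bases or more. The overlap code was tested on simulated intervals. Alternatives changed the width, merging, overlap, gene ends, and comparison genes. Python 3.11.15, NumPy 2.4.6, pandas 2.3.3, SciPy 1.17.1, and matplotlib 3.10.9 were used.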

Additional observations from a re-analysis of the deposited data

How the results depend on the processing

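Of 50 alternative values, 46 stayed within 1.5 times of the reported value. Some of these could not have moved. Merging within 1000 bases repeats a step of the scan, and no member lay in the 2 Mb that were left out. Extending genes by 1000 bases could not add a member, as the closest one not met, *Panx*, was 2033 bases from a region. The exceptions all came from keeping only regions of 10000 bases or more, which left 20 members met (8 nuclear and 6 nuage members) and a median share of 0% in regions, because fewer regions remained. All protein-coding genes were then met in 21.7%. Over the alternatives, 20 to 33 members were met, and the ratio of the share of members met to that of all protein-coding genes ranged from 1.57 to 2.23, against 1.80 as reported. Genes of the same arm and length that overlap no other gene were met in 45.1%. No paired analysis was possible because the regions form 1 set for all groups and carry no library or replicate name. The number of reads behind a region is not in the list, so a gene without a region may still have had piRNA reads below the limits of the scan. From the list alone, reads of several genes in 1 wide region cannot be told apart, and neither can the 6 groups.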
